A study of Mus musculus with 10 samples.

Results

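Cutting of RNA at ACA sites was compared between mouse embryonic stem cells with and without Mettl3, at the 1046 of 1626 listed sites that had a value in both stem cell columns of the deposited table. The members were all sites with both values, whatever those values were, and the measure was the efficiency in Mettl3 -/- cells (KO) minus that in WT cells. The study covered 10 polyA RNA libraries: 3 WT and 3 KO libraries of embryonic stem cells (ESC), and 2 WT and 2 KO libraries of embryoid bodies (EB), the aggregates in which stem cells differentiate, here for 9 days. Both ESC groups had been expanded with LIF in serum on inactivated fibroblast feeders, and were then passaged on gelatin in serum-free N2B27 medium with LIF and the kinase inhibitors CHIR99021, which acts on GSK3, and PD0325901, which acts on MEK. EB of both genotypes came from such cells and were grown in suspension in serum without LIF or inhibitors. The labels used here do not say how many clones each genotype stands for, or by which allele Mettl3 was inactivated.

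Each group has 1 value per site, so no replicate spread, SD or test could be given for any site. The sources used here do not state how the 3 libraries of a group were joined, how many reads lie behind a value, or how the listed sites were chosen, and the depth is therefore unknown. Where a gene is called higher or lower below, the difference reached 0.10 in efficiency, a size set by convention and not by a test. The table holds no expression values. None of 10 embryonic stem cell marker genes and none of 8 feeder fibroblast marker genes had a listed site, and of 10 differentiation genes 2 had one but none with both ESC values. Neither the cell type nor the loss of Mettl3 could therefore be checked in these data.

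N6-methyladenosine (m6A) is the most common internal modification of messenger RNA, and Mettl3 is the catalytic subunit of the complex that writes it in the nucleus, mostly at an A that follows a purine and G and precedes C. Methylated messages are bound by readers such as the Ythdf proteins and tend to be degraded faster, and in stem cells the mark is known for limiting the lifetime of pluripotency messages. MazF, a bacterial toxin, is an RNase specific for ACA, and m6A at the leading A of this triplet protects the RNA from it. In an assay of that kind the efficiency is the fraction of molecules cut, from 0 for a site listed as never cut to 1 for one listed as always cut. No label used here names the enzyme.

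A few sites show the range of what was measured. They are given in the sense of the RNA with T for U, with 12 bases on either side of the 5-base stretch in capitals, a purine, G and ACA, whose middle base is the A that can carry m6A. Exoc3, Golph3 and Ranbp2 were little cut in WT and largely cut in KO. Ythdf1 and Ythdf2 are readers of m6A whose sites resemble each other. Scoc and Bms1 were largely cut in both, Clptm1 and Cgas hardly cut in either, and Helb had the largest difference in the opposite direction.
Exoc3: gtttgccatcttGGACAgaactgtgacaa
Golph3: ccctcaccgaatGGACAagcgcttgctgg
Ranbp2: gaagagagagatGGACAgtactttgaacc
Ythdf1: ctcactacctatGGACAacttagtaatgg
Ythdf2: ctaacttcttatGGACAactgagcaacgg
Scoc: gctgcactttggGGACAtatatgaaagtg
Bms1: gaaggaggaagaGGACAagctgaggcggc
Clptm1: cgccctcttcctGGACAgatcaggccggg
Cgas: ttgagtgcctcaGGACAgagaaactggat
Helb: cgaggccgagcaAGACAtcgcctcctcca

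Across all members the cutting was more complete in KO. The median efficiency was 0.440 in WT and 0.818 in KO, and the median of the site-by-site difference was 0.130, with quartiles of 0.0295 and 0.392. KO was higher than WT by at least 0.10 at 580 sites (55.4% of all members) and lower by at least 0.10 at 27 sites (2.58%). These counts depend on taking the columns as deposited: with each column's median subtracted, which shifts every site by −0.378, 205 sites were higher and 707 lower, and the higher sites made up 22.5% of those past 0.10 in place of 95.6%. That shift is the gap between the column medians and is larger than the median difference itself. A smaller count of higher sites therefore followed from the subtraction and is no test of the columns' scale. All values below are as deposited. The 902 sites that matched a single gene came from 801 genes, and 509 of them (56.4%) were higher and 23 (2.55%) lower.

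**Figure D1:**
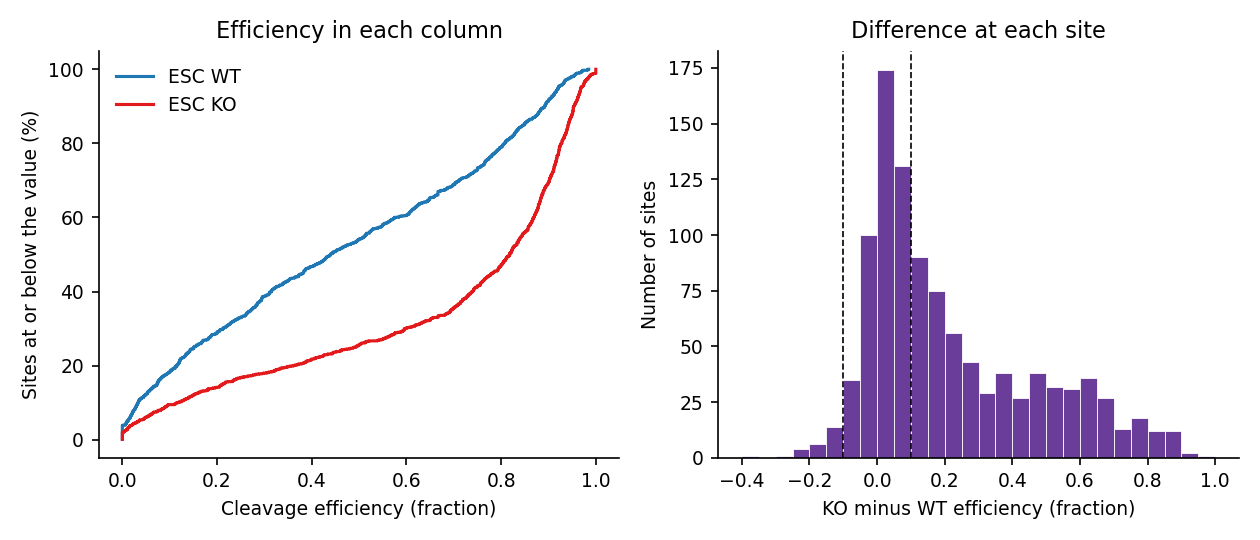
The left panel plots the share of the 1046 sites (percent) at or below each cleavage efficiency (fraction), with the ESC WT column in blue and the ESC KO column in red. The right panel is the histogram of KO minus WT per site, with dashed lines at 0.10 in either direction; 580 sites lie at or past the upper line and 27 at or past the lower, with columns as deposited, and after subtracting column medians the counts are 205 and 707.

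Where a site started in WT did not fix where it ended in KO. Of 300 sites below 0.2 in WT, 57 (19.0%) were at 0.8 or more in KO, 102 lay between, and 141 (47.0%) were still below 0.2. Of 525 sites between 0.2 and 0.8 in WT, 294 (56.0%) were at 0.8 or more in KO and 7 were below 0.2. Of 221 sites at 0.8 or more in WT, 205 (92.8%) were also there in KO. Over the 1046 sites the WT and KO values had a Pearson correlation of 0.674 and a Spearman correlation of 0.643, as a description of sites that share their sequence and transcript in both columns.

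The sites with the largest differences were made up differently from the rest. Of 184 sites higher by at least 0.50, 163 (88.6%) were GGACA, against 62.2% of all members. Among the 153 of them with a named gene, 145 (94.8%) lay over 100 nt from an exon junction, against 67.5% of all named sites, and none was in the 5′ UTR, against 9.31%. The base T at the second position after ACA was found in 46.7% of them and in 27.8% of all members. The 205 sites that were largely cut in both columns stood at the other end, with 41.0% GGACA and 38.2% over 100 nt from a junction. These features are measured on the sequence and the annotation, and were not used to take members from the listed sites. All members were GGACA or AGACA, however, and how sites came to be listed is not stated. The features overlap, and they are taken in turn below.

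The base before GACA went with the size of the difference. GGACA sites (651) had median efficiencies of 0.311 in WT and 0.8 in KO and a median difference of 0.181. AGACA sites (395) had 0.667 in WT, 0.839 in KO and a difference of 0.0677. The KO values of these sets were thus closer to each other than the WT values. As a share of the KO value, for sites of at least 0.2 in KO, the WT value was lower by a median of 42.3% at GGACA and 11.2% at AGACA. Of GGACA sites 63.7% were higher in KO by at least 0.10, and of AGACA sites 41.8%.

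Bases beyond the 5-base stretch also went with the difference. T at the second base after ACA had the largest median of the 4 bases there: 0.262 over 291 sites, of which 214 (73.5%) were higher, while G there had 0.0791, with 44.0% higher. T was above G in both stretches, with medians of 0.384 and 0.118 in GGACA sites and of 0.204 and 0.0419 in AGACA sites. On the other side, T just before the 5-base stretch had a median of 0.256, with 180 of 255 sites higher, and the other 3 bases had 0.0820 to 0.105. One base further out A led, at 0.220 over 333 sites, and G was lowest, at 0.0831 over 341. GGACA sites with T at both of these places, just before the stretch and second after ACA, had a median of 0.407, with 61 of 70 higher, and GGACA sites with T at neither had 0.111, with 166 of 311 higher. In AGACA sites the same split gave 0.265, with 12 of 16 higher, and 0.0541, with 93 of 275.

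The base just after ACA went with the KO value itself. Sites with G there (397) had medians of 0.207 in WT and 0.552 in KO, and all other sites (649) had 0.576 and 0.875. In GGACA sites the KO median was 0.407 with G after ACA and 0.865 without. Over all members the median difference was 0.111 with G and 0.147 without. This joined opposite orders: in GGACA sites it was 0.124 with G and 0.247 without, and in AGACA sites 0.0842 with G and 0.0611 without. As a share of the KO value the order was the other way, but only sites of at least 0.2 in KO enter that share. The WT value was lower by a median of 32.7% at 282 of the 397 sites with G. It was lower by 20.6% at 616 of the 649 others. Of the 148 sites below 0.2 in KO, 115 had G after ACA. In that set the median difference was 0.00613, and 15 sites were higher and 8 lower.

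The 10 named sites with the lowest KO value among those with KO above WT by under 0.10 show this end of the range, and 8 of them had G right after ACA. In Clptm1 the 3′ UTR site was listed at 0 in WT and its KO value was 0.00442 (chromosome 7, position 20218950, minus strand of mm9). The 3′ UTR site of Cgas, the sensor of cytosolic DNA, was listed at 0 and 0.0204 (chromosome 9, position 78280872, minus strand). Sars, a seryl-tRNA synthetase gene, was listed at 0 and 0.0116, and Ilf2, which encodes a double-stranded RNA-binding complex subunit, at 0.00508 and 0.0118. Tgif1, Caprin1, Zdhhc1, Mtf1, Fntb and Kifc5b made up the rest, with KO values of 0.0139 to 0.0222. All 10 sites also had both EB values, and none differed there by 0.10 or more. Whether these sites are methylated cannot be read from the difference, since the KO value leaves no room for one.

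Distance from an exon junction split the sites over a wide range of medians. The median difference was 0.0371 within 25 nt of a junction (21 of 82 sites higher), 0.0430 at 26 to 50 nt, 0.0753 at 51 to 100 nt, 0.115 at 101 to 150 nt and 0.191 at 151 to 200 nt. Farther out it was 0.238 at 201 to 400 nt (151 of 210), 0.262 at 401 to 1000 nt and 0.282 beyond 1000 nt (51 of 70). The WT medians were farther apart than the KO medians: the 293 sites within 100 nt had medians of 0.751 in WT and 0.842 in KO, and the 609 farther sites 0.351 and 0.818. The median difference was 0.0507 within 100 nt and 0.220 beyond. The 13 sites with no junction were counted as farther in this split and in the others at 100 or 200 nt. The finer bins above leave them out. It made little difference on which side the junction lay, with medians of 0.0467 where the nearest junction was upstream and 0.0513 where it was downstream.

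**Figure D2:**
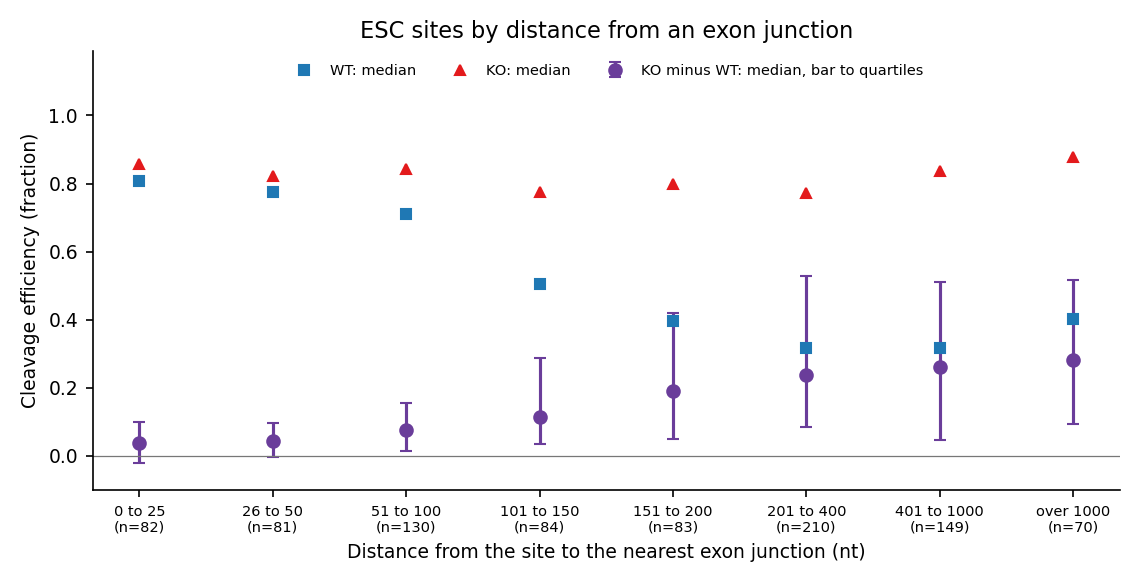
The vertical axis is the cleavage efficiency (fraction) and the horizontal axis the distance (nt) from a site to the nearest exon junction, with the WT median as a blue square, the KO median as a red triangle, and the median KO minus WT difference as a purple point with a bar to the quartiles over sites. The KO medians lie between 0.773 and 0.878 while the WT medians go from 0.806 within 25 nt to 0.317 at 201 to 400 nt; values are as deposited.

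Both sequences showed the step at exon junctions, and it was larger in GGACA. For that sequence, sites within 100 nt had a median difference of 0.0601 and farther ones 0.340, and AGACA sites 0.0329 and 0.120. The 82 GGACA sites within 50 nt of a junction had a median of 0.0440. The 96 GGACA sites that lay over 200 nt from a junction and had T second after ACA had medians of 0.183 in WT and 0.835 in KO, a median difference of 0.528, and 82 sites higher. The 110 AGACA sites within 100 nt of a junction and without that T had 0.827 and 0.863, a difference of 0.0321, and 26 sites higher. These sets differ in 3 features at once.

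Exon length, which limits this distance, went with the difference as well. In internal exons the median difference was 0.0404 in exons of up to 200 nt (31 of 118 sites higher), 0.0668 at 201 to 400 nt, 0.224 at 401 to 1000 nt and 0.358 beyond 1000 nt (50 of 63). No site in an internal exon of up to 200 nt can lie over 100 nt from a junction. In internal exons of 401 to 1000 nt the 17 sites within 100 nt of a junction had a median of 0.0802. By place in the transcript, sites in the first exon had a median of 0.0516 (51 of 151 higher), in internal exons 0.0874 (153 of 317) and in the last exon 0.226 (296 of 421). The 13 sites in genes with a single exon had a median of 0.538, which joined 9 GGACA sites at 0.562 and 4 AGACA sites at −0.0825. Among those AGACA sites were both sites of Zbed6, a transcription factor gene, which were lower in KO, with 0.286 in WT against 0.119 in KO at one and 0.390 against 0.188 at the other.

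By region the median difference was 0.225 in the 3′ UTR, 0.119 in coding sequence, or CDS, and 0.0496 in the 5′ UTR. These regions differ in how many of their sites lie far from a junction: 96.0% of the 272 sites in the 3′ UTR lay over 100 nt away, 54.3% of the 505 in the CDS and 60.7% of the 84 in the 5′ UTR. Their shares of GGACA were close, at 64.0%, 60.8% and 58.3%. Over the farther sites alone the order of the 3′ UTR and the CDS turned round, with 0.230 and 0.281, while the 5′ UTR stayed lowest at 0.0671. Within 100 nt of a junction the CDS had 0.0507, with 75 of 231 sites higher, and the 5′ UTR 0.0276, with 8 of 33. The 3′ UTR sites so near a junction were few and unlike these, with a median of 0.199 and 10 of 11 higher. The same held within the CDS for exons that are not the last: sites over 100 nt from a junction in internal coding exons had a median of 0.272, with 86 of 121 higher. In GGACA sites alone the 5′ UTR had medians of 0.524 in WT and 0.622 in KO and a difference of 0.0388, with 17 of 49 higher.

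Around the end of the coding sequence the largest median lay on the 3′ side, though not every bin there was above those before it. Sites 200 to 400 nt before the last CDS base had a median of 0.0565, sites within 100 nt before it 0.175 (40 of 57 higher), and sites up to 100 nt after it 0.167. The median was 0.266 at 101 to 200 nt after it (37 of 48), 0.324 at 201 to 400 nt (31 of 40) and 0.280 at 401 to 1000 nt, and beyond 1000 nt it was 0.158. Farther than 400 nt before the end of the CDS it lay between 0.0940 and 0.104. The largest median was therefore not at the stop codon itself but 201 to 400 nt after it, in bins of 38 to 144 sites. These bins were not split by distance from a junction. Over 100 nt from one lay 96.0% of 3′ UTR sites but 54.3% of CDS sites. The position in the reading frame went with no such span: with ACA as a codon the median was 0.123, with GAC as a codon 0.115, and in the remaining frame 0.123.

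**Figure D3:**
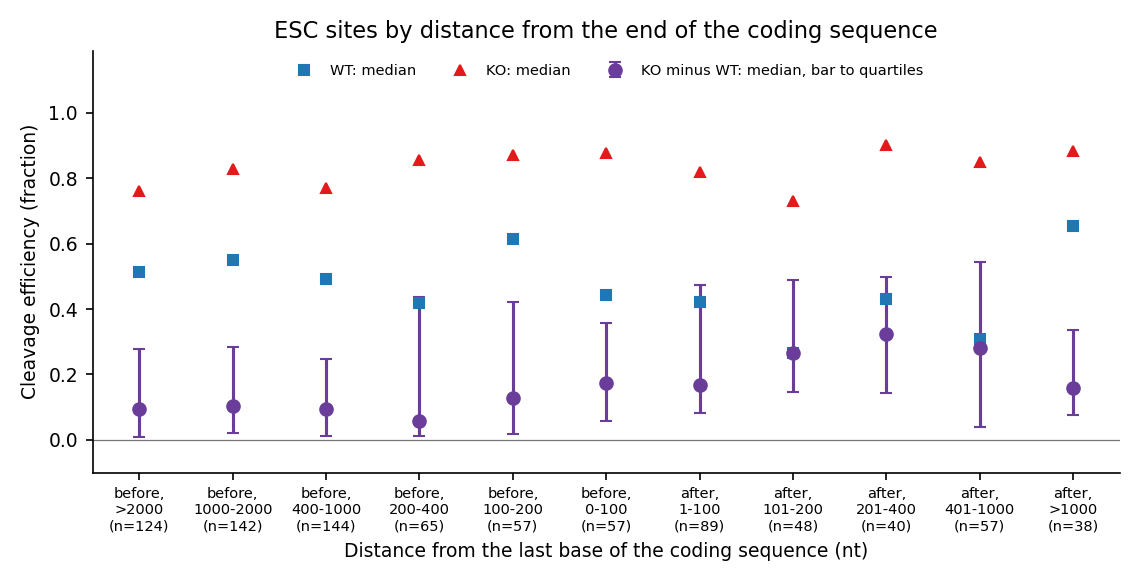
The vertical axis is the cleavage efficiency (fraction) and the horizontal axis the distance (nt) of the site before or after the last base of the coding sequence; symbols are the median in WT (blue square), in KO (red triangle) and of KO minus WT (purple point, bar to the quartiles over sites). The median difference is largest at 201 to 400 nt after the last coding base, at 0.324, with columns as deposited.

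Other properties of the surrounding RNA went less with the difference. The share of G and C in the 101 nt around a site had a Spearman correlation of −0.125 with the difference over 902 sites and −0.281 with the KO value. The predicted chance of being unpaired, averaged over the bases of ACA, came from folding 151 nt of transcript. It had a Spearman correlation of −0.0565 with the difference, 0.157 with WT and 0.0951 with KO. These are descriptions over sites that share libraries and base composition.

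Of the 30 named sites with the largest upward differences, 1 site per gene, 28 were GGACA, against 62.2% of all members. Over 100 nt from a junction lay 28, against 67.5% of all named sites. In the last exon lay 25, against 421 of all 902 named sites. The CDS held 15 and the 3′ UTR 15, against 56.0% and 30.2% of all named sites. The WT values of the 30 ran from 0 to 0.196 and their KO values from 0.818 to 1. Differences this large require a low WT and a high KO value. The first 15 were led by BC048403, which was listed at 0 in WT and reached 0.957 in KO, and were sites almost uncut in WT. Ranks 16 to 30 continued without a break, with differences of 0.846 to 0.777. Exoc3, a subunit of the exocyst that tethers secretory vesicles, was at 0.0755 in WT and 0.921 in KO (CDS, chromosome 13, position 74330344, minus strand). Golph3, a Golgi protein that binds phosphatidylinositol 4-phosphate, had a CDS site with 0.0536 and 0.861 (chromosome 15, position 12279348, plus strand). Ranbp2, a nucleoporin of the cytoplasmic face of the pore, had a CDS site with 0.0862 and 0.864 (chromosome 10, position 57942639, plus strand).

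Several of these genes act on chromatin or RNA. Rbbp5, a core subunit of histone H3 lysine 4 methyltransferases, was at 0.0208 in WT and 0.857 in KO, at a site in the 3′ UTR 79 nt from a junction. Mga, a transcription factor that pairs with Max, was at 0.0411 and 0.818, and Cpsf2, a subunit of the complex that cleaves and polyadenylates messenger RNA, at 0.121 and 0.953. Trmt6, a subunit of a tRNA methyltransferase, was at 0.156 and 0.977. Rbbp6 and Spop, which act in ubiquitin ligation, were at 0.100 and 0.902 and at 0.0926 and 0.879. Rrbp1, a ribosome-binding protein of the endoplasmic reticulum, was at 0.0755 and 0.867, and Sulf2, an extracellular sulfatase, at 0.0891 and 0.878. Cant1, Nif3l1, Arhgap11a and Tmem43 differed by 0.835, 0.816, 0.788 and 0.782. All of these sites were at or below 0.2 in WT and above 0.8 in KO.

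The 10 largest downward differences, 1 site per gene, looked unlike these. They ran from −0.366 to −0.128, and 2 of 10 were in a last exon, counting the single exon of Zbed6. Of all 902 named sites, 421 lay in the last of several exons and 13 in a single exon. AGACA made up 6 of the 10, against 395 of all 1046 members. Within 100 nt of a junction lay 5 of the 10, against 293 of 902 named sites. The WT values of the 10 were 0.390 to 0.957 and their KO values 0.188 to 0.769. Helb, a DNA helicase gene, stood apart at 0.811 in WT and 0.444 in KO (CDS, chromosome 10, position 119542786, minus strand), and the next was Sbno1 at 0.852 and 0.613. Nsd2, a histone methyltransferase gene, was at 0.531 and 0.321, and Itm2a, which had a 5′ UTR site, at 0.957 and 0.769. Pmf1, a kinetochore protein gene, was at 0.644 and 0.462, Zc3h7a at 0.529 and 0.395, and Fopnl at 0.745 and 0.618. Only 2 of the 10 had both EB values, Zbed6 with a difference of 0.05 and Pmf1 with 0.211, and neither was lower there.

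Near the limit of 0.10 the sites did not separate. Just inside lay Akap2 (0.101), Pole4 (0.102), Ik (0.102), Dusp12 (0.102) and Ago2 (0.103), and just outside Huwe1 (0.0994), Rbm17 (0.0974), Trip6 (0.0970), Eftud2 (0.0957) and Tfdp2 (0.0949). A count of sites past 0.10 is a count at a chosen size and not of methylated sites.

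GGACA sites over 100 nt from a junction did not all differ. The 10 GGACA sites farthest from a junction among those with WT of at least 0.80 and a difference under 0.05 lay 113 to 995 nt from a junction. Of these 10, 2 had T second after ACA and 5 had G there, against 191 and 202 of all 651 GGACA sites. In the 5′ UTR lay 2 of the 10, against 49 of 556 named GGACA sites. The 3′ UTR site of Scoc, 995 nt from a junction, had 0.912 in WT and 0.943 in KO (chromosome 8, position 85958944, minus strand). Bms1, a ribosome assembly GTPase gene, had a CDS site with 0.968 and 0.959 (chromosome 6, position 118333775, minus strand). A 3′ UTR site of Slc2a3, a glucose transporter gene, was at 0.871 and 0.895, and one of Rer1, a Golgi sorting receptor gene, at 0.875 and 0.910. A 5′ UTR site of Hspa5, the main chaperone of the endoplasmic reticulum, was at 0.903 and 0.865. Atp5k, Taf2, Hadh, Derl1 and Prrc2c completed the set, and of the 9 with both EB values none differed there by 0.10.

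Sites of 1 gene did not always fall on the same side of 0.10. Of 801 genes, 90 had 2 or more sites, with 191 sites in all. In 41 of these genes every site was higher by at least 0.10, in 11 none was, and in 38 some were and some were not. Sites little cut in KO were not set aside in these counts. Of all 902 named sites 56.4% were higher, and the counts that this share alone would give were not computed. Over the 112 pairs of sites of the same gene, the differences lay a median of 0.165 apart (quartiles 0.0837 and 0.380), and 19 pairs lay at least 0.5 apart. The 13 pairs within 200 nt of each other had a median gap of 0.130, the 33 pairs at 201 to 1000 nt 0.258 and the 63 pairs beyond 0.164, while the sites of 3 pairs matched different transcripts of their gene and had no distance. Both sites of such a pair come from the same gene and share the columns' scale. They can lie in different transcripts of that gene, whose levels are not known here. Pairs of sites from different genes were not compared, so whether sites of 1 gene are more alike than others was not tested.

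The same features were compared between sites of 1 gene. Of 48 pairs in 39 genes with a GGACA and an AGACA site, GGACA had the larger difference in 32, and over all 48 the GGACA site was above the AGACA site by a median of 0.132. Of 33 pairs in 30 genes with a site over 100 nt from a junction and a nearer one, the farther site had the larger difference in 25, with a median gap over all 33 of 0.0875. Of 39 pairs in 32 genes in which the sites differed in having T second after ACA, the site with T had the larger difference in 28, with a median gap over all 39 of 0.111.

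Ccnd1, which encodes cyclin D1, a driver of entry into the cell cycle, had its sites on either side of its stop codon. They are printed to show how alike the 5-base stretches are.
Ccnd1 CDS: cgtgcgagatgtGGACAtctgagggccac
Ccnd1 3′ UTR: cgtcccccttggGGACAtgttgttaccag
The site 4 nt before the last CDS base had 0.311 in WT and 0.971 in KO (chromosome 7, position 152118519, minus strand), and the one 95 nt after it at 0.217 and 0.139 (position 152118420). The values were closer to each other in WT than in KO, where the first site was cut almost completely and the second was not. In EB they were at 0.330 and 0.948 and at 0.235 and 0.136.

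Rrbp1 had a pair of GGACA sites in the same coding exon of 2119 nt, both over 100 nt from a junction.
Rrbp1 upstream: ttcctcccctaaGGACAgaaagaagaagg
Rrbp1 downstream: agctcaaaaacaGGACAaaaaaatagaag
The upstream site was at 0.0755 in WT and 0.867 in KO, and the downstream site at 0.694 and 0.589, a difference of −0.105. Ranbp2 had its higher site in an exon of 4663 nt, 928 nt from a junction, and a further site 70 nt from a junction at 0.495 and 0.373. In Sulf2 the 3′ UTR site with a difference of 0.789 had a neighbour in the same exon that was hardly cut, at 0.0245 and 0.0148. Lima1, an actin-binding protein gene, was at 0.0111 and 0.881 at a GGACA site in the 3′ UTR and at 0.697 and 0.824 at an AGACA site in the CDS. Cpsf2 had an AGACA site 5 nt from a junction at 0.894 and 0.895, beside its higher 3′ UTR sites.

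Genes with 3 sites show the same spread. In Ythdf2, whose protein directs methylated messages to decay, all 3 GGACA sites lay in exon 4 and had, from 5′ to 3′, WT values of 0.321, 0 and 0.199 and KO values of 0.924, 0.707 and 0.732. Fat1, a giant cadherin gene, also had all 3 higher, by 0.405, 0.528 and 0.542. Arid1a, the DNA-binding subunit of the BAF nucleosome remodeller, had sites at 0.768 and 0.932, at 0.00826 and 0.133, and at 0.205 and 0.899; the middle site, which has G after ACA, remained little cut in KO. Slc2a3 had a CDS site at 0.295 and 0.916 and a pair of 3′ UTR sites that differed by 0.0230 and 0.0241. Ipo8, an importin gene, had 2 sites in its 5′ UTR that differed by −0.103 and −0.0890 and a 3′ UTR site that differed by 0.104. Ahnak had 3 sites in a coding exon of 17498 nt, 4096 nt or more from a junction, which differed by 0.0706, 0.0732 and 0.340. They were at 0.0120 in WT and 0.0826 in KO, at 0.0819 and 0.155, and at 0.278 and 0.618. The first 2 sites thus remained little cut in KO. Aff1, Apc, Cpsf2 and Ppp4r1 had 3 sites as well.

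**Figure D4:**
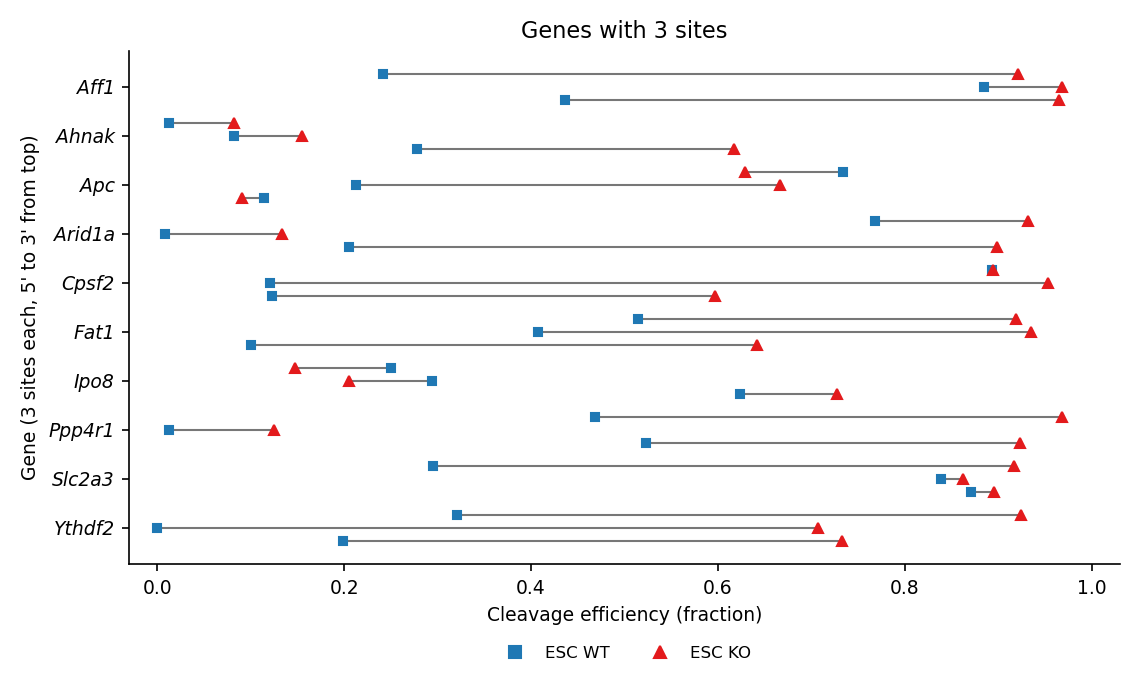
Each line is 1 site of 10 genes with 3 sites each, in order from 5′ to 3′ within its gene, and joins the cleavage efficiency (fraction, horizontal axis) in ESC WT (blue square) and ESC KO (red triangle). In Ythdf2 and Fat1 all 3 lines run to the right by 0.405 or more, while in Slc2a3 1 line is long and the others are 0.0241 or shorter; values are as deposited.

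Ythdf1 and Ythdf2 encode related readers, and 1 site of each lies at a matching place. The Ythdf1 and Ythdf2 sites printed above share 23 of 29 bases and both lie 137 nt from a junction in exon 4. The values were 0.250 in WT and 0.921 in KO for Ythdf1 (chromosome 2, position 180646775, minus strand) and 0.321 and 0.924 for Ythdf2 (chromosome 4, position 131761493, minus strand). A further Ythdf1 site, with 0 listed in WT and 0.890 in KO, had between 9 and 13 of 29 bases in common with the Ythdf2 sites.

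Gene lists describe which functions the sites fell in. The lists, some of whose genes overlap (Tet1 and Zfp281 each stand in 2), were set against the median of 0.134 over all 902 named sites and the 56.4% of them that were higher. Of 20 lists, 19 had sites. Subtraction of column medians shifts every site by −0.378 and so leaves the order of the lists unchanged. On that scale 3 of the 19 list medians were above 0, at 0.190, 0.118 and 0.149. They were those of m6A machinery and readers, LIF signalling and pluripotency, and autophagy and lysosome. The others were below 0 on that scale. Lists also differ in sequence and distance, and no list is called particular for its function.

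Genes of the m6A pathway had 8 sites in 4 genes, 7 of them higher, with a median of 0.568. They were genes of readers and other m6A-binding proteins, Ythdf1, Ythdf2, Prrc2a and Ythdc1, and not of the writer complex. The 5 GGACA sites of this list were all in the related genes Ythdf1 and Ythdf2, with differences of 0.533 to 0.890. The smallest difference of the list, 0.0313, was at an AGACA site outside those genes. The list of LIF signalling and pluripotency had 5 sites, all higher, with a median of 0.496, from Il6st, Zfp281, Tet1 and Tbx3, of which 1 was GGACA and all 5 lay over 100 nt from a junction. Il6st, the signalling subunit of the LIF receptor, had 3′ UTR sites at 0.0571 and 0.912 and at 0.295 and 0.892. The list for the pathway that CHIR99021 acts on, Wnt and GSK3, had 3 of 6 sites higher and 1 lower. Its largest difference was in Csnk1d, at 0.0135 in WT and 0.918 in KO, and Apc, the scaffold of the β-catenin destruction complex, had 3 sites that differed by 0.454, −0.0234 and −0.105. No gene of the ERK pathway list, which PD0325901 acts on, had a site with both values.

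Cell cycle and mitosis genes had a median of 0.311, and 17 of 23 sites were higher while none was lower. Foxm1, a transcription factor of mitotic genes, was at 0.100 in WT and 0.952 in KO. Centromere protein genes were among them, with Cenps at 0.140 and 0.690, Cenpb at 0.0667 and 0.574 and Cenpl at 0.132 and 0.611, and so was Kif20a, a mitotic kinesin, at 0.392 and 0.879. The spindle checkpoint genes Bub1 and Bub3 had sites that differed by 0.0394 and 0.0101. DNA replication and repair genes had 4 of 10 higher and 1 lower, with a median of 0.0456; Orc1, of the origin recognition complex, was at 0.231 and 0.771, and Mcm3 and Mcm6, of the replicative helicase, differed by −0.0161 and 0.0308. In the centrosome and cilium list 4 of 5 sites were higher, with a median of 0.179 and the largest difference in Cep57.

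Chromatin regulators were the list with the most sites, 35 in 27 genes, of which 22 were higher and 1 lower, with a median of 0.159. Brd1, Kdm3b, Baz1b and Kdm5a, which read or remove histone marks or remodel nucleosomes, differed by up to 0.765, 0.672, 0.619 and 0.570. Some of these genes also had a site with almost no difference: Kdm3b had another at 0.0297, and Atrx one at 0.000877 beside one at 0.147. The zinc finger and BTB transcription factors had 10 of 16 higher and 2 lower, both in Zbed6, with a median of 0.189.

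For RNA processing and translation the lists ran on both sides of the median of all named sites. Splicing factors and hnRNP genes had a median of 0.229, and 12 of 16 sites were higher while none was lower; Son, a scaffold of nuclear speckles, was at 0.233 and 0.953 and, at another site, at 0.503 and 0.898. RNA helicases had 3 of 9 higher and a median of 0.0634, with Dhx30 at 0.106 and 0.698. Translation factors and ribosomal genes had 6 of 13 higher and a median of 0.0540. Eif4g1, the scaffold of the cap-binding complex, was at 0.144 and 0.915, Eif2a at 0.112 and 0.8 and Eif2s2 at 0.445 and 0.966, while Eif4a1, Eif3l, Eef1d and Rpl4 were above 0.9 in both columns. Nuclear pore and transport genes had 8 of 14 higher and 2 lower, with a median of 0.138, and included Ipo9 at 0.0833 and 0.857.

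Genes of membranes and of protein turnover had lists above and below the median of all named sites. Membrane traffic and Golgi genes had a median of 0.211, and 12 of 20 sites were higher while none was lower, and Sec22a, a SNARE-like protein, was at 0.429 and 0.967. Ubiquitin ligases and deubiquitinases had 12 of 26 higher and 2 lower (Fbxo21 and Ubr2), with a median of 0.0966, and Otud4 and Usp10, which remove ubiquitin, differed by 0.630 and 0.603. The list of folding and stress in the endoplasmic reticulum had 2 of 8 higher, in Sel1l and Hspa5, and 1 lower, in the disulfide isomerase gene Pdia6, with a median of 0.0515. The autophagy and lysosome list had 4 of 5 sites higher, with a median of 0.528; 2 of them were in Nrbf2 and 1 each in Atg13 and the cathepsin gene Ctsd. Cytoskeleton and motor genes had 9 of 16 higher, with a median of 0.125, and mitochondrial genes 7 of 11, with a median of 0.121. The list of adhesion and matrix genes had 5 of 9 higher and a median of 0.357, and 3 of those 5 were the sites of Fat1; the laminin gene Lamb1 and the nidogen gene Nid2 were the others.

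**Figure D5:**
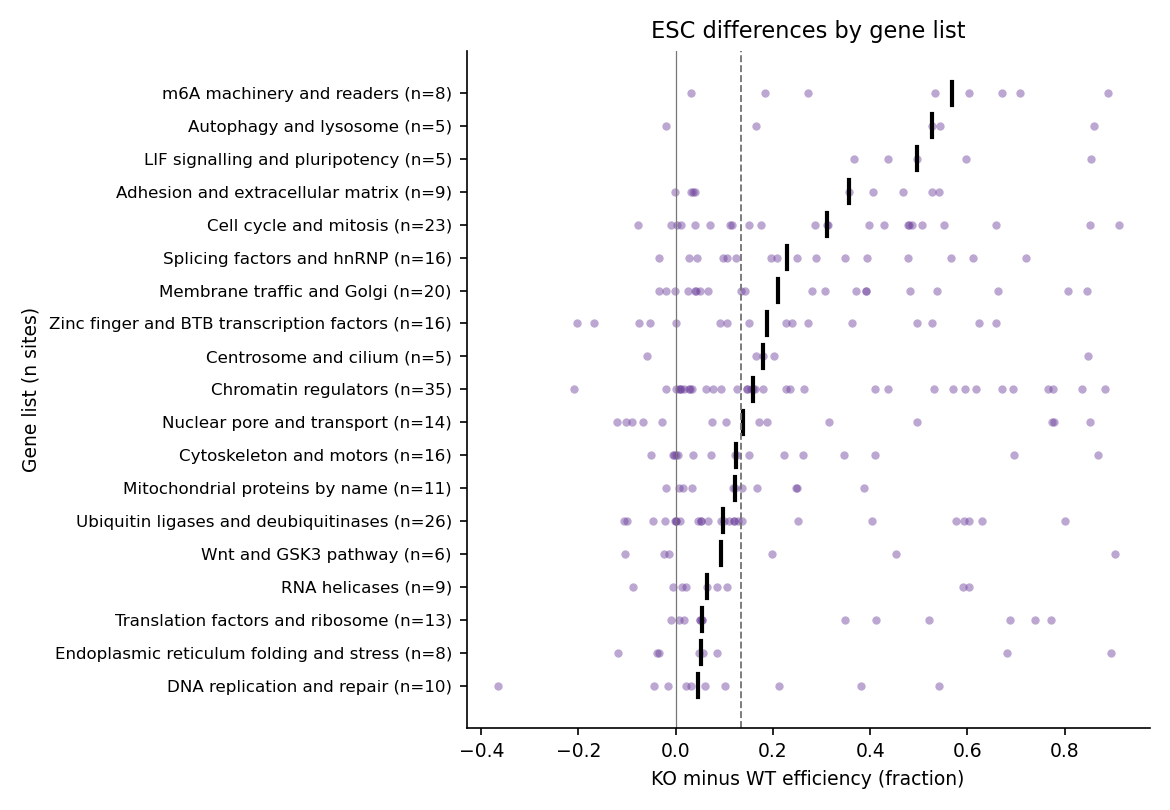
Each point is 1 site of a gene list (vertical axis, n sites in brackets), placed at its KO minus WT efficiency (fraction); the black bar is the list's median and the dashed line the median of 0.134 over all named sites. List medians run from 0.0456 to 0.568 as deposited, and after subtraction of column medians all but those of the m6A, autophagy and LIF lists are below 0.

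The same sites were read in EB, in columns of their own. At the 759 sites with values in all 4 columns, EB KO was higher than EB WT by at least 0.10 at 306 (40.3%) and lower at 46 (6.06%). Of the 580 sites higher in ESC, 407 had both EB values, and 282 of these (69.3%) were higher there, with a median EB difference of 0.259. All 126 of the sites higher in ESC by at least 0.50 that had both EB values were also higher in EB, with a median of 0.584. Of the 27 sites lower in ESC, 14 had both EB values, and there 3 were lower and 2 higher, with a median of 0.00157. Sites that were lower in ESC thus mostly had no such difference in EB, although each is a single value per column.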

How the data were processed

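The authors deposited 1 table of cleavage efficiencies, each a fraction between 0 and 1 per site and group, with 4 columns for 10 libraries; no column could be tied to a library, and 0 columns belonged to no group. Per the submitters' processing notes, which give no roles, the tools were STAR 2.5.3a and bedtools 2.26.0 and the build mm9. How reads were counted is not stated in the sources used here. KO minus WT was taken site by site on the fraction, with no filter and no pseudocount. The planned tests need values for each library and were not run, so no p-value is given. The members and gene lists were chosen with earlier results of these data known.

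Sites were named by finding their 11-base sequence in GENCODE M21 transcripts on the same chromosome and strand, within 100 nt of the deposited transcript position. A match was kept where the shift between builds equalled that of a neighbouring site; 1423 of 1473 single-gene matches (96.6%) were kept, and searching the opposite strand gave 54 matches. Regions, distances and the printed 29-base sequences, with the A at base 15, are those of the matched transcripts. Coordinates are as deposited, 1-based, in mm9, at that A. Folding used ViennaRNA 2.7.2; medians and counts used Python 3.11.15, pandas 2.3.3 and SciPy 1.17.1 and were tested on simulated data.

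The sites named were, at 1 per gene, the 30 with the largest upward and the 10 with the largest downward difference; the 10 lowest in KO among those higher by under 0.10; the 10 GGACA sites farthest from a junction with WT of at least 0.80 and a difference under 0.05; every gene with 3 sites; the 6 genes with the largest range between their sites; up to 4 sites per list and direction past 0.10; and the 5 on either side of 0.10. Further list members were named after their values were seen. An item that this rule takes is not reported here, and it still counts in all totals and medians.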

Additional observations from a re-analysis of the deposited data

How the results depend on the processing

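No paired analysis was possible because the table has 1 column per group, and for the same reason neither leaving out a replicate nor a replicate block could be run. The main limit is the scale of the columns, which was not tested. With column medians subtracted, which takes out the gap between the columns by construction, 205 sites were higher and 707 lower. On that scale 25.6% of sites lay above 0 and the median was −0.248. Among other settings the median was 0.219 as a mean, 1.01 on the logit scale and 0.248 as a share of KO at sites with KO of at least 0.20. The share of sites higher was 86.2% at means of 0.05 to 0.95, 87.6% with KO of at least 0.20 and 86.3% without the deposited low class. Lower sites numbered 14 with all 4 values, 17 without the low class and 6 at a size of 0.20. The GGACA minus AGACA difference of medians, 0.114, was 0.185 with KO of at least 0.20, 0.845 on the logit scale, 0.0272 near a junction and 0.220 far from one; within the deposited classes it was −0.0224 (low), 0.0516 (intermediate), 0.201 (high) and 0.0135 (highest). The 3′ UTR minus CDS difference, 0.106, was −0.0508 beyond 100 nt from a junction, a setting chosen after seeing the data. The 3′ UTR minus 5′ UTR difference, 0.175, was 0.294 in GGACA and 0.0953 in AGACA, and the CDS minus 5′ UTR difference, 0.0692, was 0.136 and 0.00955. The far minus near difference, 0.170, was 0.280 in GGACA, 0.0870 in AGACA, 0.0316 in the 3′ UTR and 0.0395 in the 5′ UTR. The cause of these shifts was not tested. The depth behind each value is unknown, so no precision can be given for any single site.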

Other observations

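Sites with a value in only 1 of the ESC columns enter no difference. The 228 sites with a WT value alone had a median of 0.402 in WT, with 77 below 0.2. The 178 sites with a KO value alone had a median of 0.736 in KO, and 72.5% of them were GGACA, against 62.2% of the sites with both values. A further 174 sites had no ESC value.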
